A study of Mus musculus with 12 samples.

Results

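Cholesterol is made from acetyl-CoA in a long chain of enzymes, and 29 genes of that chain, of its control and of sterol storage and export are described here. They were taken by name, with earlier results of these data known. Of the 29, 18 encode synthesis enzymes (7 of the mevalonate arm and 11 of the squalene and sterol arm). A further 5 encode the SREBP transcription factors and their partners, and 6 handle sterols once these are made or taken up. All 29 were found in the table of 56980 genes, and all 29 were among the 15110 genes with enough counts to be tested. The libraries were of mouse bone marrow-derived macrophages, cells grown from flushed bone marrow for 7 days in medium conditioned by L929 cells. There were 4 groups of 3 libraries. The cKO_M1 group came from RankCre-Regnaes3cKO marrow (spelled as in the labels; a conditional knockout of Regnase-3, encoded by Zc3h12c, with Cre named for Rank) and was stimulated with bacterial lipopolysaccharide (LPS, 100 ng/ml) and interferon-gamma (10 ng/ml). The WT_M1 group came from wildtype marrow under the same stimulation. The cKO_M0 and WT_M0 groups were the same genotypes without stimulation. The series asks about the function of Regnase-3 when macrophages that express Rank polarize. The controls are labelled wildtype, with no mention of whether they carry the Cre. Neither the age of the mice nor the deleted part of the gene was given in the labels, nor whether the 3 libraries of a group are separate animals or cultures. The p-values therefore measure only how these libraries spread, which may be technical.

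Most enzymes of the chain are made when cells lack sterol. The SREBP proteins then leave the endoplasmic reticulum with the escort protein SCAP, are cut in the Golgi, and switch on synthesis and uptake genes. When sterol is plentiful, INSIG proteins hold SCAP and SREBP back. Oxysterols such as the product of Ch25h also act on INSIG, and oxysterols activate the LXR receptors, whose known targets include the export pumps Abca1 and Abcg1 and the ubiquitin ligase gene Mylip. Macrophages take up much cholesterol with engulfed cells and lipoproteins, and store the excess as esters made by the product of Soat1.

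Library totals lay between 41721452 and 42197986 counts. Levels are CPM, counts divided by the library total, on a scale set by TMM factors, whose means were 0.840 in cKO_M1, 0.808 in WT_M1, 1.22 in cKO_M0 and 1.21 in WT_M0. The targeted gene was still counted in the knockout libraries. Zc3h12c had 3463, 3652 and 4484 counts in cKO_M1, against 6020, 6392 and 5424 counts in WT_M1. It had 703, 944 and 751 counts in cKO_M0, against 878, 819 and 794 counts in WT_M0. Zc3h12c was lower in cKO_M1 than in WT_M1 by a log2 fold change of -0.68 (SE 0.12, edgeR adjusted p = 0.00101) and did not pass the test in M0 (-0.07, SE 0.12, adjusted p = 0.81). The table counts whole genes, so a deleted exon could not be looked at. All 8 macrophage markers were tested, and their sum lay between 14204 and 18844 CPM in the 12 libraries. Single markers moved within that sum. By the edgeR test, 7 of the 8 (87.5%) passed on stimulation in each genotype, against 70.2% of all genes tested in cKO and 71.4% in WT. Between the genotypes in M1, 3 (37.5%) passed, against 18.6% of all genes tested. In the interaction described below, 4 (50%) passed, against 8.16%. The sum of 6 genes that mark LPS and interferon-gamma stimulation was 13750.1 to 14902 CPM in cKO_M1, 12048 to 12902 CPM in WT_M1, 65.3 to 93.2 CPM in cKO_M0 and 64.0 to 79.8 CPM in WT_M0. All 6 rose on stimulation in each genotype by the edgeR test. In cKO_M1 against WT_M1, 2 were higher and 1 lower, which is 50% of the 6, against 18.6% of all genes tested. The log2 fold changes of the 6 in that comparison ran from -1.77 to 1.35. The sum of 8 B and plasma cell markers was 0.397 to 0.426 CPM in cKO_M1 and 1.84 to 3.01 CPM in WT_M1, and 2.06 to 14.1 CPM in cKO_M0 and 7.47 to 13.6 CPM in WT_M0. The 8 neutrophil markers, of which 7 stayed under 1 CPM, summed to 11.4 ± 4.40 CPM in cKO_M1 and 8.41 ± 2.35 CPM in WT_M1, against 1.42 ± 0.668 CPM in cKO_M0 and 1.91 ± 0.960 CPM in WT_M0 (SD, n = 3 each). The 5 dendritic cell markers summed to 3.11 ± 0.502 CPM in cKO_M1 and 2.61 ± 0.0516 CPM in WT_M1, against 0.821 ± 0.296 CPM in cKO_M0 and 0.645 ± 0.00517 CPM in WT_M0. The part of these cells in the differences below was not tested. Among the M1 libraries, replicate 11 of WT_M1 stood apart from replicates 10 and 12 on the second principal component of all genes, at 44.9 against 24.0 and 19.9. Replicate 9 of cKO_M1 also lay apart from replicates 7 and 8, at -19.6 against -37.6 and -33.3. This component held 4.33% of the variance, against 85.1% for the first. The member results that gained or lost a call without replicate 11 of WT_M1 are given with and without it. So are the differences between cKO_M1 and WT_M1 that passed.

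Promoters are shown because SREBP is known to bind at promoters of synthesis enzymes. The part of SREBP or of any motif in the changes below was not tested. RefSeq promoter windows of GRCm38.p6, 250 bases before to 50 bases after a start, were held for 24 of the 29 members. Fdps, Fdft1, Sqle, Stard4 and Abcg1 had none in the table used. The 24 members had 32 windows, with more than 1 for Dhcr7, Insig2, Pmvk, Scap and Srebf1. A member, like any other gene, was counted for a motif where any of its windows held it. For Dhcr7, Insig2, Pmvk and Srebf1 the CCAAT box was not in every window, and the E-box of Dhcr7 lay in another window than its CCAAT boxes. The letters searched on both strands were TCACNCCA for the core of a sterol regulatory element, CCAAT for the CCAAT box bound by NF-Y, and CACGTG for an E-box. The core was in 3 of 24 members (12.5%), Hmgcs1, Msmo1 and Srebf2, against 4.67% of the 17492 protein-coding genes in the table. The CCAAT box was in 20 of 24 members (83.3%), against 42.3% of the protein-coding genes. The E-box was in 6 members (25.0%), Abca1, Dhcr7, Hsd17b7, Insig1, Sc5d and Scap, against 8.91%. A longer form of the sterol element, also searched, was in 0 of 24 members and in 0.263% of protein-coding genes. Neither a consensus LXR element nor an NF-kB site was in a member window, against 0.0% and 1.64% of protein-coding genes. The interferon-stimulated response element was in 1 member, Ebp (4.17%), against 3.94%. A match of letters is not a bound site, and no match says only that the letters are not in the window.

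The windows of Hmgcs1, Msmo1 and Srebf2 are shown because they hold the sterol core. Idi1 is shown as the enzyme gene with the deepest fall on stimulation, and Insig1 and Mylip as the members whose genotype effect differed between M1 and M0. Each reads 5′ to 3′ on the gene's strand, and capitals mark the matches to these motifs, where ATTGG is the CCAAT box on the other strand. Hmgcs1 lies at chr13:119690101-119690400 on the plus strand, Msmo1 at chr8:64733529-64733828 on the minus strand, Srebf2 at chr15:82147019-82147318 on the plus strand, Idi1 at chr13:8885356-8885655 on the plus strand, Insig1 at chr5:28071162-28071461 on the plus strand and Mylip at chr13:45389492-45389791 on the plus strand.
Hmgcs1: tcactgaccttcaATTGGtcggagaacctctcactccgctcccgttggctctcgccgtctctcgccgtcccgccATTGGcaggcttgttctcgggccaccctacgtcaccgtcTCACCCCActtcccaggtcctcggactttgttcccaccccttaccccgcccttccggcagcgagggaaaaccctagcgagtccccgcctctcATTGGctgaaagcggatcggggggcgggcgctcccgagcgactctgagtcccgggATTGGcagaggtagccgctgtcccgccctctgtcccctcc
Msmo1: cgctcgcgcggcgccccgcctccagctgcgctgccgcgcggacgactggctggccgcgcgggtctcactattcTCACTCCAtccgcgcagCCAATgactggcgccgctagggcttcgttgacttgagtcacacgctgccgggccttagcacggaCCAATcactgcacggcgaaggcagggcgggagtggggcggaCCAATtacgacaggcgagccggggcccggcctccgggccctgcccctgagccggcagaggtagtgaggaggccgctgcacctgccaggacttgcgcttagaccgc
Srebf2: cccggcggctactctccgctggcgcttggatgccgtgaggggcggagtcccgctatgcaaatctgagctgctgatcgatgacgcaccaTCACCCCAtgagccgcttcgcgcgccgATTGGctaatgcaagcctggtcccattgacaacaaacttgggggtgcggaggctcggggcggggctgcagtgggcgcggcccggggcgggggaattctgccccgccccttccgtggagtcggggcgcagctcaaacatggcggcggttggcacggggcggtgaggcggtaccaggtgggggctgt
Idi1: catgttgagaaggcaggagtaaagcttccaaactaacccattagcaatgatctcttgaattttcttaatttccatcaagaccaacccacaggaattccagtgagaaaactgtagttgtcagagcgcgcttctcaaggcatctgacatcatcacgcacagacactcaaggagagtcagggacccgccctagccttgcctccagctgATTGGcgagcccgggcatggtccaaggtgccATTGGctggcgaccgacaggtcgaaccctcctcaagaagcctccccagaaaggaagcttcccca
Insig1: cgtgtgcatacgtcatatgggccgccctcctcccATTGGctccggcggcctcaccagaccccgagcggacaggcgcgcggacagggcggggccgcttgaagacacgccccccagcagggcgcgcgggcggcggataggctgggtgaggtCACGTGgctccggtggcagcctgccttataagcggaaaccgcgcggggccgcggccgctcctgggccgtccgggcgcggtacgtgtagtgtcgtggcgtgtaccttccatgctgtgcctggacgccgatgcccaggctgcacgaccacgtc
Mylip: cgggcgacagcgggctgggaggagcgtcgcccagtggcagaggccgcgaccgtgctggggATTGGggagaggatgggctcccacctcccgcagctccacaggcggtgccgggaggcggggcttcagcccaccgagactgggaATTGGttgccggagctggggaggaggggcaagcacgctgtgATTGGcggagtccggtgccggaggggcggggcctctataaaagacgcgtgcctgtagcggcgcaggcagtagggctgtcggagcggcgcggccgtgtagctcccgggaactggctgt

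In the Hmgcs1 window, the sterol core starts 137 bases before the start, between CCAAT boxes at 176 and 45 bases before it. The Msmo1 core starts 177 bases before the start, with the nearest CCAAT box at 160 bases. In Srebf2 the core lies 162 bases before the start and its one CCAAT box 135 bases before it. Idi1 has CCAAT boxes 45 and 14 bases before the start and no core, Insig1 has a CCAAT box at 216 and an E-box at 101 bases before the start, and Mylip has 3 CCAAT boxes at 190, 108 and 67 bases before the start. Among all the member windows, the CCAAT box stood in those of genes that fell on stimulation in both genotypes and in those of Insig2, Mylip and Soat1, which rose. Also with a CCAAT box were Insig1, which fell in cKO and did not pass in WT, and Mvd, which did not pass in cKO and rose in WT. It was absent from those of Abca1 and Ch25h, which rose, and of Acat2 and Scap, which fell.

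Stimulation lowered the synthesis chain in both genotypes and raised most sterol handling genes. Of the 18 synthesis enzymes, 17 fell and 0 rose in cKO_M1 against cKO_M0, and 17 fell and 1 rose in WT_M1 against WT_M0. Over the 29 members, 22 fell, 6 rose and 1 did not pass in cKO, and 21 fell, 7 rose and 1 did not pass in WT. A gene is said to change where the edgeR quasi-likelihood F-test, with Benjamini-Hochberg adjustment over all genes tested, gave an adjusted p under 0.05. Values after rose by or fell by are log2 fold changes with their standard error, from 3 libraries a group, and where a member that passed is given without its adjusted p, this was at most 0.00427. The stimulation moved most of the transcriptome. Of all genes tested, 70.2% passed in cKO (34.2% higher and 36.0% lower) and 71.4% in WT (34.2% higher and 37.1% lower), so passing the test was the rule for any gene. The M1 and M0 libraries did not overlap for 28 members in cKO and 27 in WT, against 72.7% of all genes tested in cKO (37.6% with M1 lower) and 75.6% in WT (39.6% with M1 lower). The median log2 fold change of the members was -0.95 in cKO and -0.92 in WT, against -0.04 and -0.07 over all genes tested. As the members were chosen with earlier results of these data known, their contrast with all genes may in part reflect that choice. Summed over the 18 enzymes, the level was 232 to 234 CPM in cKO_M1 and 248 to 261 CPM in WT_M1, against 557 to 617 CPM in cKO_M0 and 575 to 610 CPM in WT_M0. The 6 sterol handling genes summed to 1296 to 1521 CPM in cKO_M1 and 1647 to 1714 CPM in WT_M1, against 703 to 761 CPM in cKO_M0 and 843 to 928 CPM in WT_M0.

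The scale bears on these counts. With library totals alone in place of TMM factors, the median of all genes moved by -0.53 in cKO and -0.58 in WT, and 24.2% of the calls in cKO and 23.5% in WT were higher, against 48.7% and 48.0% with TMM. On that scale 23 members fell and 5 rose in cKO, and 22 fell and 4 rose in WT. Of all 15110 genes tested, 8691 then fell and 2778 rose in cKO, and 9000 fell and 2769 rose in WT. The median of the members was then -1.48 in cKO and -1.51 in WT, against -0.58 and -0.65 over all genes tested. In bulk libraries, fewer cells of a type and less RNA per cell cannot be told apart.

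**Figure D1:**
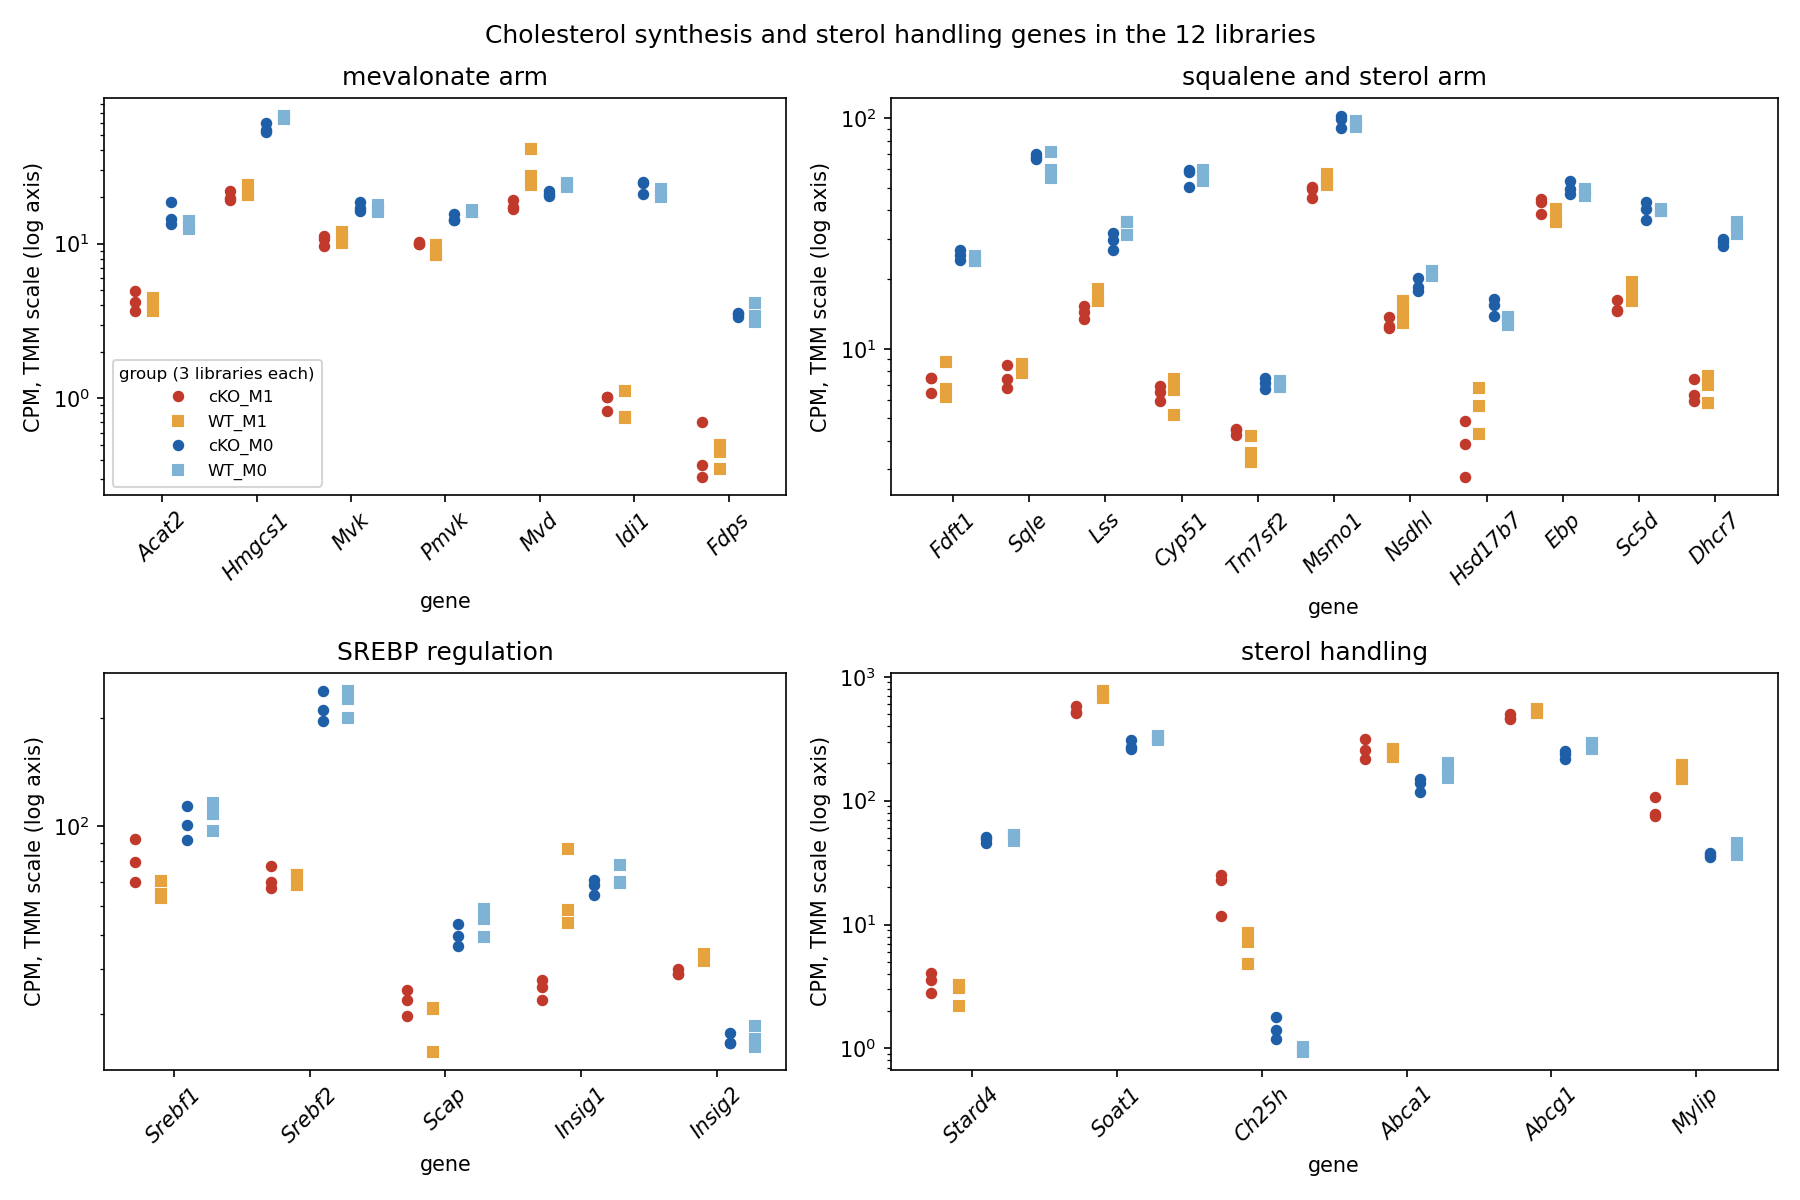
Levels of the 29 members in each of the 12 libraries, in CPM on a log axis, in 4 panels by role; each point is a library, red circles cKO_M1, orange squares WT_M1, dark blue circles cKO_M0 and light blue squares WT_M0. Idi1 sits between 0.751 and 1.11 CPM in the M1 libraries and between 20.0 and 25.0 CPM in the M0 libraries, while the M1 points of Ch25h, Abcg1, Soat1 and Mylip lie above the M0 points.

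**Figure D2:**
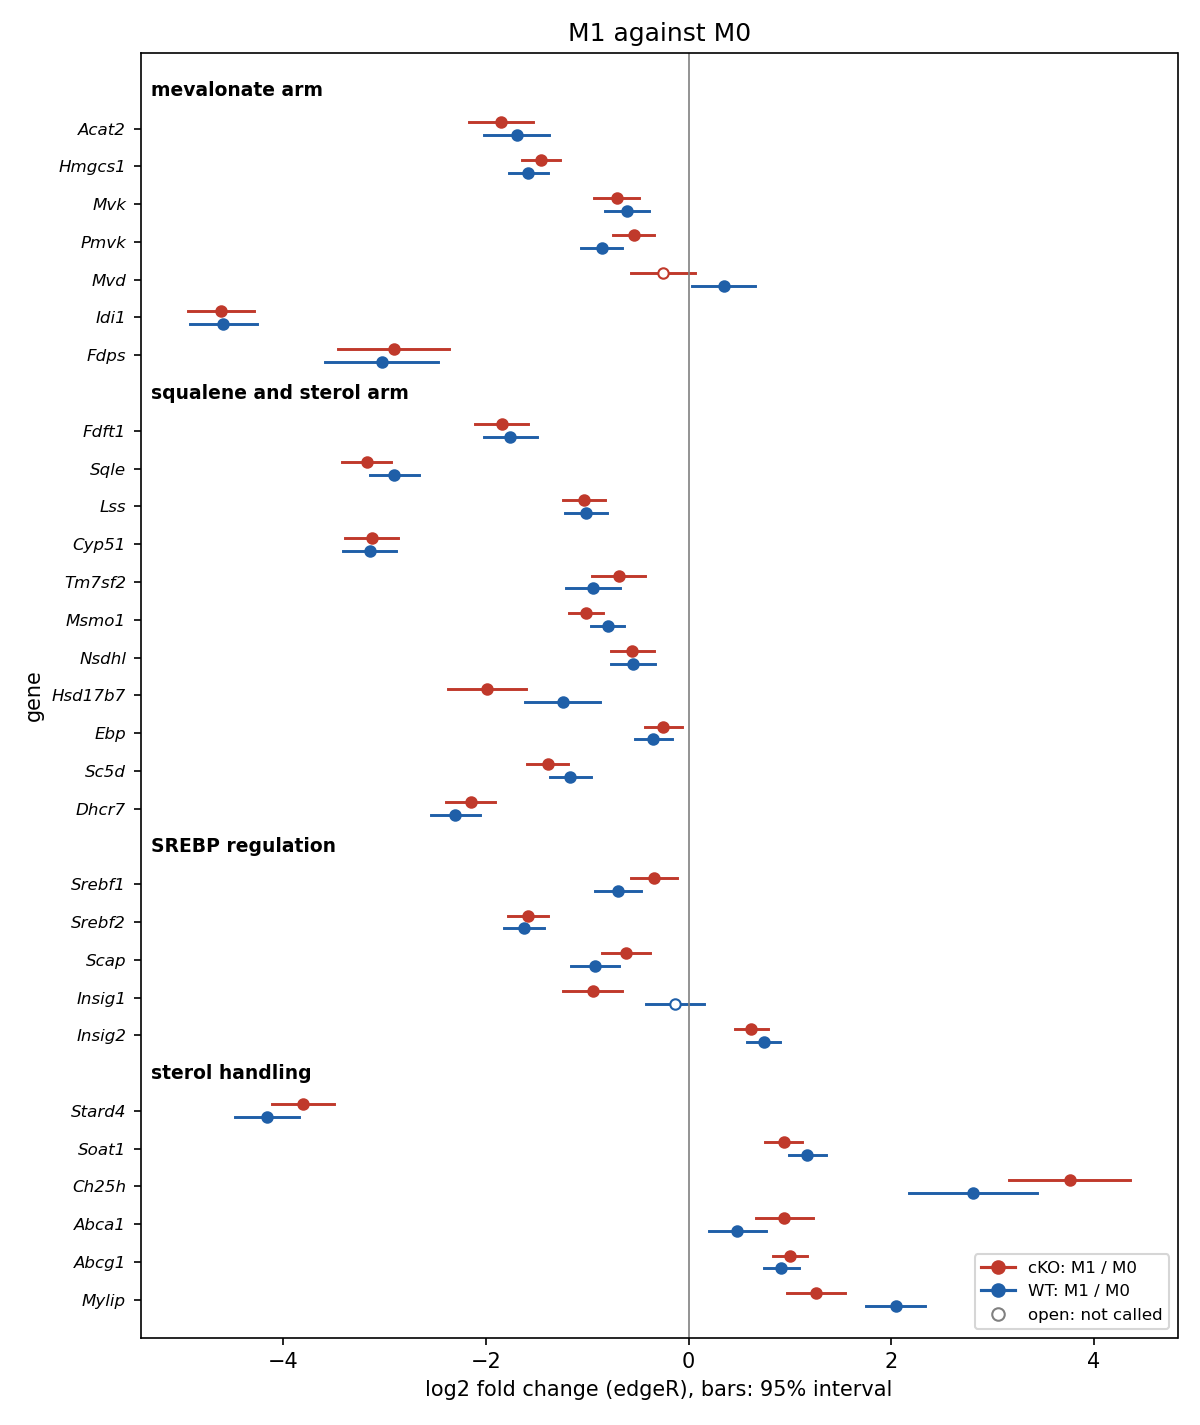
Log2 fold change of M1 against M0 for each member (x axis), with its 95% interval as a bar, in cKO (red) above WT (blue); filled points passed the test and open points did not. Points of the synthesis enzymes lie left of 0 apart from Mvd in WT at 0.35, and the lowest are those of Idi1 at -4.62 in cKO and -4.60 in WT.

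In the mevalonate arm, 6 of 7 genes fell in both genotypes. Acat2 encodes the cytosolic thiolase that joins acetyl-CoA units. It had 4.94, 3.66 and 4.22 CPM in cKO_M1 against 18.6, 13.3 and 14.3 CPM in cKO_M0, and 4.01, 4.48 and 3.66 CPM in WT_M1 against 13.1, 13.9 and 12.4 CPM in WT_M0. Its log2 fold change was -1.85 (SE 0.15) in cKO and -1.70 (SE 0.15) in WT, with no overlap of M1 and M0 libraries in either genotype. Exons of Acat2 share near-identical sequence with Acat3 and with Tcp1, so part of its reads could count elsewhere. Hmgcs1, the synthase that makes HMG-CoA, had 19.7, 19.0 and 22.0 CPM in cKO_M1 against 59.8, 52.8 and 54.0 CPM in cKO_M0, and 23.9, 20.6 and 20.5 CPM in WT_M1 against 63.5, 66.6 and 64.6 CPM in WT_M0. All M1 libraries lay well under all M0 libraries, and Hmgcs1 fell by 1.46 (SE 0.09) in cKO and by 1.58 (SE 0.09) in WT on the log2 scale.

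The kinases and the decarboxylase that follow moved less. Mvk, mevalonate kinase, had 11.1, 9.62 and 10.8 CPM in cKO_M1 against 18.5, 16.1 and 16.9 CPM in cKO_M0, and 10.0, 10.9 and 11.8 CPM in WT_M1 against 17.6, 16.5 and 15.9 CPM in WT_M0. It fell by 0.71 (SE 0.10) in cKO and by 0.61 (SE 0.10) in WT. Pmvk, the next kinase, had 10.3, 9.90 and 9.87 CPM in cKO_M1 against 14.1, 14.2 and 15.5 CPM in cKO_M0, and 8.45, 8.48 and 9.76 CPM in WT_M1 against 16.5, 15.9 and 15.9 CPM in WT_M0. The M1 and M0 libraries of Pmvk did not overlap, and it fell by 0.54 (SE 0.09) in cKO and by 0.86 (SE 0.10) in WT. Mvd, the mevalonate diphosphate decarboxylase, was the exception of this arm. It had 17.2, 16.7 and 19.0 CPM in cKO_M1 against 20.8, 20.2 and 22.0 CPM in cKO_M0, and 23.9, 40.7 and 27.2 CPM in WT_M1 against 24.4, 23.4 and 24.3 CPM in WT_M0. In cKO it did not pass (-0.25, SE 0.15, adjusted p = 0.14), and in WT it rose by 0.35 (SE 0.15, adjusted p = 0.0428), with WT_M1 replicate 11 the highest at 40.7 CPM and WT_M1 and WT_M0 libraries overlapping. Without that library the WT value was 0.10 (adjusted p = 0.367) and the cKO value -0.25 (adjusted p = 0.02), and with library totals alone the WT value was -0.24. The WT call held in 12 of 19 alternatives and was lost, among others, with limma-voom, without replicate 3 of cKO_M0 and without any 1 library of WT_M0.

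Idi1 and Fdps, which make the isoprenoid units and the farnesyl diphosphate from which squalene is built, fell steeply. Idi1, isopentenyl diphosphate isomerase, had 0.824, 1.02 and 1.02 CPM in cKO_M1 against 24.7, 20.9 and 25.0 CPM in cKO_M0, and 1.11, 0.751 and 0.762 CPM in WT_M1 against 21.1, 22.6 and 20.0 CPM in WT_M0. The level in M1 was 4.07% of that in M0 in cKO (log2 fold change -4.62, SE 0.15, adjusted p = 4.01e-13) and 4.14% in WT (-4.60, SE 0.16, adjusted p = 5.55e-13). Fdps, farnesyl diphosphate synthase, had 0.369, 0.709 and 0.311 CPM in cKO_M1 against 3.58, 3.53 and 3.38 CPM in cKO_M0, and 0.497, 0.451 and 0.352 CPM in WT_M1 against 3.13, 4.14 and 3.41 CPM in WT_M0. It fell by 2.91 (SE 0.26) in cKO and by 3.03 (SE 0.26) in WT, and its level was the lowest of the members in the M1 groups per kilobase. Near-identical pseudogene copies, at least 95% alike over 150 bases or more, were found for Fdps (4), Idi1 (2), Fdft1 (1) and, over 189 bases, Insig1 (1), so these levels are uncertain where reads matching several places were dropped or split. Of the Fdps exon bases, 26.7% also overlap Gm43738 on the same strand, a gene with 0 counts in every library, so reads there could have been left uncounted.

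In the squalene and sterol arm, 11 of 11 genes fell in both genotypes. Fdft1, squalene synthase, had 6.45, 7.46 and 7.47 CPM in cKO_M1 against 25.6, 24.3 and 26.9 CPM in cKO_M0, and 8.80, 6.67 and 6.15 CPM in WT_M1 against 24.0, 25.2 and 24.1 CPM in WT_M0. Its log2 fold change was -1.85 (SE 0.12) in cKO and -1.76 (SE 0.12) in WT. Of its exon bases, 18.3% overlap Ctsb on the other strand, a gene with up to 653057 counts in a library, and the strand setting of the counting was not given in the sources used here. Sqle, squalene epoxidase, which adds the oxygen that opens the sterol branch, had 6.76, 7.38 and 8.52 CPM in cKO_M1 against 70.2, 66.9 and 68.1 CPM in cKO_M0, and 8.39, 8.60 and 7.85 CPM in WT_M1 against 54.9, 71.5 and 59.6 CPM in WT_M0. Sqle was 9.05-fold lower in M1 in cKO (log2 fold change -3.18, SE 0.11) and 7.49-fold lower in WT (-2.90, SE 0.11). Lss, which closes the rings to form lanosterol, fell less. It had 13.4, 14.5 and 15.3 CPM in cKO_M1 against 32.0, 29.7 and 27.0 CPM in cKO_M0, and 16.1, 18.3 and 16.3 CPM in WT_M1 against 31.3, 35.5 and 35.7 CPM in WT_M0, with log2 fold changes of -1.04 (SE 0.10) in cKO and -1.01 (SE 0.10) in WT.

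The enzymes that strip methyl groups from lanosterol fell to unlike degrees. Cyp51, the cytochrome P450 that removes the first of these groups, had 6.48, 6.92 and 5.94 CPM in cKO_M1 against 58.6, 50.6 and 59.9 CPM in cKO_M0, and 6.64, 7.39 and 5.19 CPM in WT_M1 against 53.3, 59.8 and 57.3 CPM in WT_M0. It fell by 3.13 (SE 0.12) in cKO and by 3.15 (SE 0.12) in WT, and its M1 and M0 libraries stood far apart. Tm7sf2, the sterol reductase of the next step, had 4.46, 4.51 and 4.24 CPM in cKO_M1 against 7.11, 6.71 and 7.49 CPM in cKO_M0, and 3.54, 3.22 and 4.19 CPM in WT_M1 against 7.04, 6.81 and 7.22 CPM in WT_M0. Its fall was -0.69 (SE 0.12) in cKO and -0.94 (SE 0.13) in WT, and 12.1% of its exon bases overlap Vps51. Msmo1, the sterol methyl oxidase, fell less than Cyp51. It had 49.3, 50.5 and 45.3 CPM in cKO_M1 against 102, 90.4 and 99.7 CPM in cKO_M0, and 57.2, 51.5 and 53.5 CPM in WT_M1 against 91.4, 93.2 and 97.6 CPM in WT_M0, a log2 fold change of -1.01 (SE 0.08) in cKO and -0.80 (SE 0.08) in WT.

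Nsdhl and Hsd17b7 encode the dehydrogenase and the reductase that finish the demethylation. Nsdhl had 12.3, 12.6 and 13.8 CPM in cKO_M1 against 20.4, 18.5 and 17.9 CPM in cKO_M0, and 14.5, 12.9 and 16.2 CPM in WT_M1 against 21.2, 21.9 and 20.6 CPM in WT_M0. It fell by 0.55 (SE 0.10) in cKO and by 0.55 (SE 0.10) in WT, nearly alike. Hsd17b7 had 2.78, 3.86 and 4.87 CPM in cKO_M1 against 13.9, 16.4 and 15.5 CPM in cKO_M0, and 6.79, 5.65 and 4.28 CPM in WT_M1 against 12.7, 13.8 and 13.2 CPM in WT_M0. It fell by 1.99 (SE 0.18) in cKO and by 1.24 (SE 0.18) in WT.

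Ebp, Sc5d and Dhcr7 encode the last steps, an isomerase, a desaturase and the reductase that yields cholesterol. Ebp, the isomerase, moved little, with 44.8, 43.3 and 38.4 CPM in cKO_M1 against 53.7, 47.0 and 49.6 CPM in cKO_M0, and 40.5, 35.5 and 37.0 CPM in WT_M1 against 48.3, 46.1 and 49.6 CPM in WT_M0. Its log2 fold change was -0.25 (SE 0.09, adjusted p = 0.0165) in cKO and -0.35 (SE 0.09, adjusted p = 0.0018) in WT, and leaving out replicate 1 of cKO_M0 or replicate 9 of cKO_M1 ended the cKO call, with an adjusted p of up to 0.0914. Sc5d, the desaturase, had 14.7, 16.4 and 14.7 CPM in cKO_M1 against 43.2, 36.1 and 40.6 CPM in cKO_M0, and 19.6, 17.4 and 16.2 CPM in WT_M1 against 39.7, 39.7 and 40.3 CPM in WT_M0. It fell by 1.39 (SE 0.10) in cKO and by 1.17 (SE 0.09) in WT. Dhcr7, the reductase, fell further still. It had 6.28, 5.96 and 7.38 CPM in cKO_M1 against 30.1, 29.2 and 27.9 CPM in cKO_M0, and 5.85, 7.66 and 6.98 CPM in WT_M1 against 31.6, 34.0 and 35.5 CPM in WT_M0, with log2 fold changes of -2.15 (SE 0.11) in cKO and -2.30 (SE 0.11) in WT.

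The genes that control SREBP were split. Srebf2, the main activator of the cholesterol genes, had 67.4, 69.8 and 77.7 CPM in cKO_M1 against 196, 238 and 211 CPM in cKO_M0, and 68.5, 73.4 and 73.3 CPM in WT_M1 against 199.5, 238 and 226 CPM in WT_M0. It fell by 1.59 (SE 0.09) in cKO and by 1.62 (SE 0.09) in WT, and no M1 library overlapped an M0 library. Srebf1, whose products act mostly on fatty acid genes, fell by less. It had 70.0, 79.3 and 92.3 CPM in cKO_M1 against 91.7, 114 and 101 CPM in cKO_M0, and 64.8, 63.3 and 70.3 CPM in WT_M1 against 97.0, 116 and 108 CPM in WT_M0. Its log2 fold change was -0.34 (SE 0.11, adjusted p = 0.0103) in cKO, where the groups overlapped and where leaving out replicate 2 of cKO_M0 gave an adjusted p of 0.0566, and -0.69 (SE 0.11) in WT. Scap, the escort protein, had 29.8, 32.9 and 35.0 CPM in cKO_M1 against 46.3, 53.6 and 49.7 CPM in cKO_M0, and 23.7, 31.3 and 31.1 CPM in WT_M1 against 49.2, 58.8 and 55.2 CPM in WT_M0, and fell by 0.61 (SE 0.11) in cKO and by 0.92 (SE 0.11) in WT.

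The INSIG genes did not move together. Insig1, itself a known SREBP target, had 35.7, 33.0 and 37.3 CPM in cKO_M1 against 70.8, 64.6 and 68.8 CPM in cKO_M0, and 58.5, 86.4 and 53.8 CPM in WT_M1 against 69.7, 69.8 and 78.2 CPM in WT_M0. It fell by 0.95 (SE 0.14, adjusted p = 1.39e-05) in cKO and did not pass in WT (-0.13, SE 0.13, adjusted p = 0.389), where replicate 11 of WT_M1 was the highest M1 library at 86.4 CPM. Without that library the WT value was -0.36 (adjusted p = 0.00294) and passed, and with library totals alone it was -0.72 (adjusted p = 0.000109) and passed too. Insig2, a partner with the same role, moved the other way. It had 38.9, 40.1 and 38.8 CPM in cKO_M1 against 26.7, 24.9 and 25.0 CPM in cKO_M0, and 43.9, 44.1 and 42.2 CPM in WT_M1 against 27.8, 24.4 and 25.6 CPM in WT_M0. Insig2 rose by 0.62 (SE 0.08) in cKO and by 0.74 (SE 0.08) in WT, but with library totals alone the value was 0.08 in cKO (adjusted p = 0.346) and 0.16 in WT (adjusted p = 0.0815).

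Of the 6 sterol handling genes, 5 rose and 1 fell in both genotypes. The gene that fell was Stard4, a cytosolic carrier that moves cholesterol between membranes and is itself a known SREBP target. It had 4.06, 2.78 and 3.54 CPM in cKO_M1 against 50.8, 49.5 and 45.2 CPM in cKO_M0, and 3.10, 2.19 and 3.25 CPM in WT_M1 against 46.8, 53.1 and 53.2 CPM in WT_M0. The M1 level was 7.13% of the M0 level in cKO (log2 fold change -3.81, SE 0.14) and 5.59% in WT (-4.16, SE 0.15). Soat1, which esterifies cholesterol for storage, had 518, 506 and 584 CPM in cKO_M1 against 307, 270.4 and 262 CPM in cKO_M0, and 729, 773 and 680.3 CPM in WT_M1 against 326, 310.3 and 333 CPM in WT_M0. It rose by 0.94 (SE 0.09) in cKO and by 1.17 (SE 0.09) in WT. Ch25h, the hydroxylase that makes an oxysterol from cholesterol and is a known interferon-stimulated gene, was low without stimulation. It had 25.2, 22.8 and 11.7 CPM in cKO_M1 against 1.18, 1.79 and 1.42 CPM in cKO_M0, and 7.28, 4.78 and 8.53 CPM in WT_M1 against 1.04, 0.959 and 0.945 CPM in WT_M0, and rose 13.6-fold in cKO (log2 fold change 3.76, SE 0.28) and 6.99-fold in WT (2.80, SE 0.30). Of its exon bases, 11.5% overlap Gm26902 on the other strand, a gene with up to 77 counts in a library.

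The export pumps and Mylip rose as well. Abca1, which loads cholesterol onto lipid-poor apolipoprotein, had 215, 255 and 315 CPM in cKO_M1 against 140.2, 149 and 118 CPM in cKO_M0, and 262, 225 and 254 CPM in WT_M1 against 176, 154 and 201 CPM in WT_M0. It rose by 0.95 (SE 0.13) in cKO and by 0.48 (SE 0.13) in WT, where library totals alone gave -0.10 (adjusted p = 0.504). Abcg1, which exports cholesterol to larger lipoprotein particles, had 455, 469 and 499.6 CPM in cKO_M1 against 218, 252 and 239.7 CPM in cKO_M0, and 529, 514 and 551 CPM in WT_M1 against 262, 288 and 294 CPM in WT_M0. The groups did not overlap, and it rose by 1.00 (SE 0.08) in cKO and by 0.92 (SE 0.08) in WT. Mylip, a ubiquitin ligase that marks lipoprotein receptors for breakdown, had 78.7, 75.1 and 108 CPM in cKO_M1 against 34.8, 38.0 and 36.7 CPM in cKO_M0, and 161, 194 and 149 CPM in WT_M1 against 39.8, 36.6 and 45.8 CPM in WT_M0. It rose by 1.26 (SE 0.13) in cKO and by 2.05 (SE 0.14) in WT.

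The order of the members by CPM per kilobase of gene length changed with stimulation. In M0, Abcg1 had the highest mean. It was at 32.4 ± 2.35 CPM per kb in cKO_M0, where it overlapped Srebf2 and Soat1, and at 38.5 ± 2.37 in WT_M0, where it overlapped no other member. In M1 the top was shared by Abcg1 and Soat1. Abcg1 was at 65.0 ± 3.14 CPM per kb in cKO_M1 and 72.8 ± 2.56 in WT_M1, and Soat1 at 54.8 ± 4.26 in cKO_M1 and 74.3 ± 4.75 in WT_M1, overlapping in WT_M1 and apart in cKO_M1. Mylip ranked 3 in both M1 groups, at 27.0 ± 5.54 in cKO_M1, where it overlapped Abca1, and at 52.1 ± 7.23 in WT_M1, where it did not. Srebf2 ranked 10 in both M1 groups, and 2 in cKO_M0 and 3 in WT_M0. Idi1 and Fdps stood last in M1, while in M0 the last places were those of Fdps and Ch25h. Between neighbours in these orders, the libraries overlapped in 15 of 28 pairs in cKO_M1, 17 in WT_M1, 18 in cKO_M0 and 15 in WT_M0.

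Without stimulation, none of the 29 members passed the test between cKO_M0 and WT_M0. Over all genes tested, 1.61% passed, 0.662% higher and 0.953% lower. At an unadjusted p under 0.05 there were 5 of the 29 members, against 18.6% of all genes tested, and the libraries did not overlap for 10, against 26.2% of all genes tested. DESeq2 called 1 member lower (Abcg1), limma-voom called 0, and the fit with no filter on low counts called 1 lower (Abca1, adjusted p = 0.0039). Each of these fits also called more of all genes than the main fit. Those counts are given in the section on how the results depend on the processing. The median log2 fold change was -0.04 over the members and 0.01 over all genes. The largest values were those of the handling genes. Ch25h was at 1.46 ± 0.305 CPM in cKO_M0 and 0.980 ± 0.0495 CPM in WT_M0 (SD, n = 3 each), a log2 fold change of 0.57 with a 95% interval from -0.11 to 1.26. Abca1 was at 136 ± 16.2 CPM in cKO_M0 and 177 ± 23.5 CPM in WT_M0, with -0.38 (interval -0.67 to -0.10). Abcg1, the gene that DESeq2 called, had -0.25 (interval -0.42 to -0.08). The enzymes lay between -0.22 for Hmgcs1 and 0.23 for Acat2.

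After stimulation, 5 members passed the test between the genotypes, and 1 of them was a synthesis enzyme. Ch25h was higher in cKO_M1 than in WT_M1, and Insig1, Mylip, Mvd and Soat1 were lower. That is 17.2% of the 29 members, against 18.6% of all genes tested (8.98% higher and 9.67% lower), so the share is near that of all genes. Of the 18 enzymes, 1 passed and 17 did not. The median log2 fold change was -0.06 over the members and 0.02 over all genes. The libraries of cKO_M1 and WT_M1 did not overlap for 11 members, these 5 among them, against 33.7% of all genes tested. With library totals alone 61.5% of all calls were higher, against 48.2% with TMM, and 2 members were then higher and 4 lower. Of all 15110 genes tested, 1982 were then higher and 1239 lower.

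**Figure D3:**
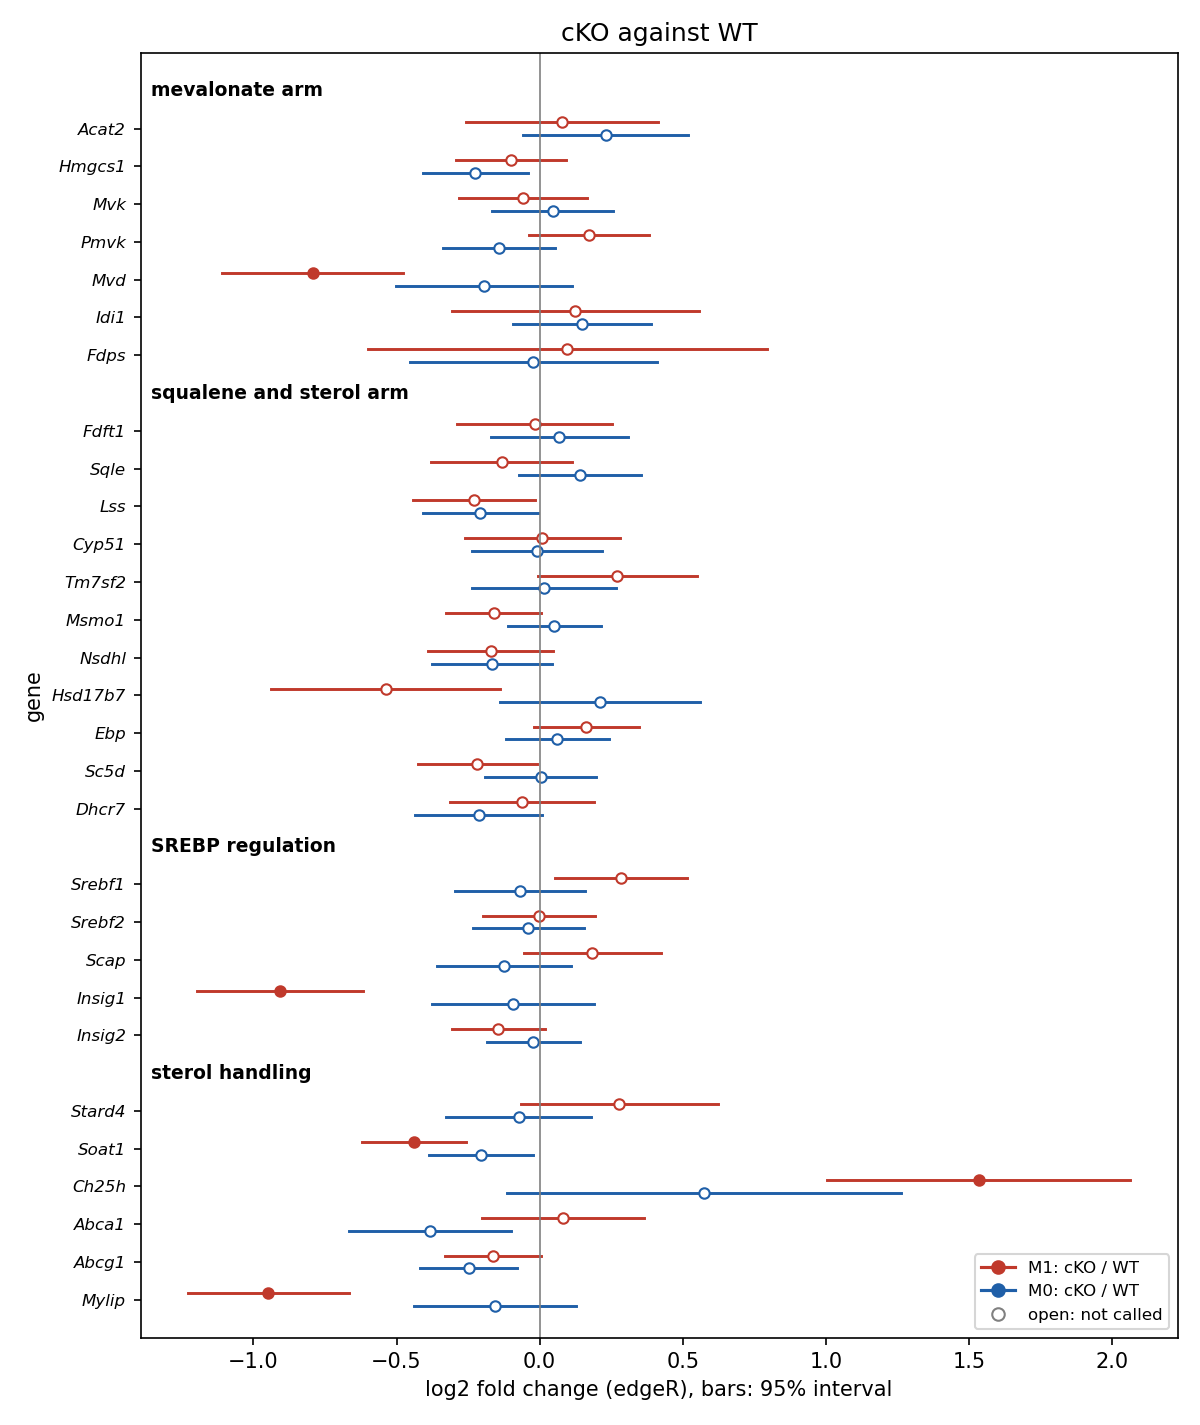
Log2 fold change of cKO against WT for each member (x axis), with its 95% interval as a bar, in M1 (red) above M0 (blue); filled points passed the test and open points did not. The filled points are Ch25h at 1.53, Mylip at -0.95, Insig1 at -0.91, Mvd at -0.79 and Soat1 at -0.44, all in M1.

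Ch25h (ENSMUSG00000050370) averaged 19.9 ± 7.20 CPM in cKO_M1 and 6.86 ± 1.91 CPM in WT_M1 (SD, n = 3 each). Its libraries were at 25.2, 22.8 and 11.7 CPM in cKO_M1 and at 7.28, 4.78 and 8.53 CPM in WT_M1, so the cKO_M1 libraries spread widely and all lay above the WT_M1 libraries. The log2 fold change was 1.53 (SE 0.25, adjusted p = 0.000676), or 2.89-fold. Without replicate 11 of WT_M1 it was 1.31 (adjusted p = 0.00488). Insig1 (ENSMUSG00000045294) averaged 35.3 ± 2.21 CPM in cKO_M1 and 66.2 ± 17.6 CPM in WT_M1, and was lower (log2 fold change -0.91, SE 0.14, adjusted p = 0.000381). The cKO_M1 libraries of Insig1 lay within 33.0 to 37.3 CPM, while those of WT_M1 ran from 53.8 to 86.4 CPM, with replicate 11 on top. Without replicate 11 of WT_M1 the value was -0.68 (adjusted p = 0.000411).

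Mylip (ENSMUSG00000038175) averaged 87.2 ± 17.9 CPM in cKO_M1 and 168 ± 23.4 CPM in WT_M1, a log2 fold change of -0.95 (SE 0.13, adjusted p = 0.00022). The highest cKO_M1 library, at 108 CPM, stayed under the lowest WT_M1 library, at 149 CPM. Mvd (ENSMUSG00000006517) averaged 17.6 ± 1.20 CPM in cKO_M1 and 30.6 ± 8.89 CPM in WT_M1, with -0.79 (SE 0.15, adjusted p = 0.00184). Without replicate 11 of WT_M1, the log2 fold change of Mvd was -0.55 (adjusted p = 0.00234) and that of Mylip -0.85 (adjusted p = 0.00124). Soat1 (ENSMUSG00000026600), the storage enzyme, had the smallest of the 5 differences. It averaged 536 ± 41.7 CPM in cKO_M1 and 728 ± 46.5 CPM in WT_M1, with -0.44 (SE 0.09, adjusted p = 0.00238), or 73.7% of the WT_M1 level. Without replicate 11 of WT_M1 the Soat1 value was -0.41 (adjusted p = 0.0131).

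**Figure D4:**
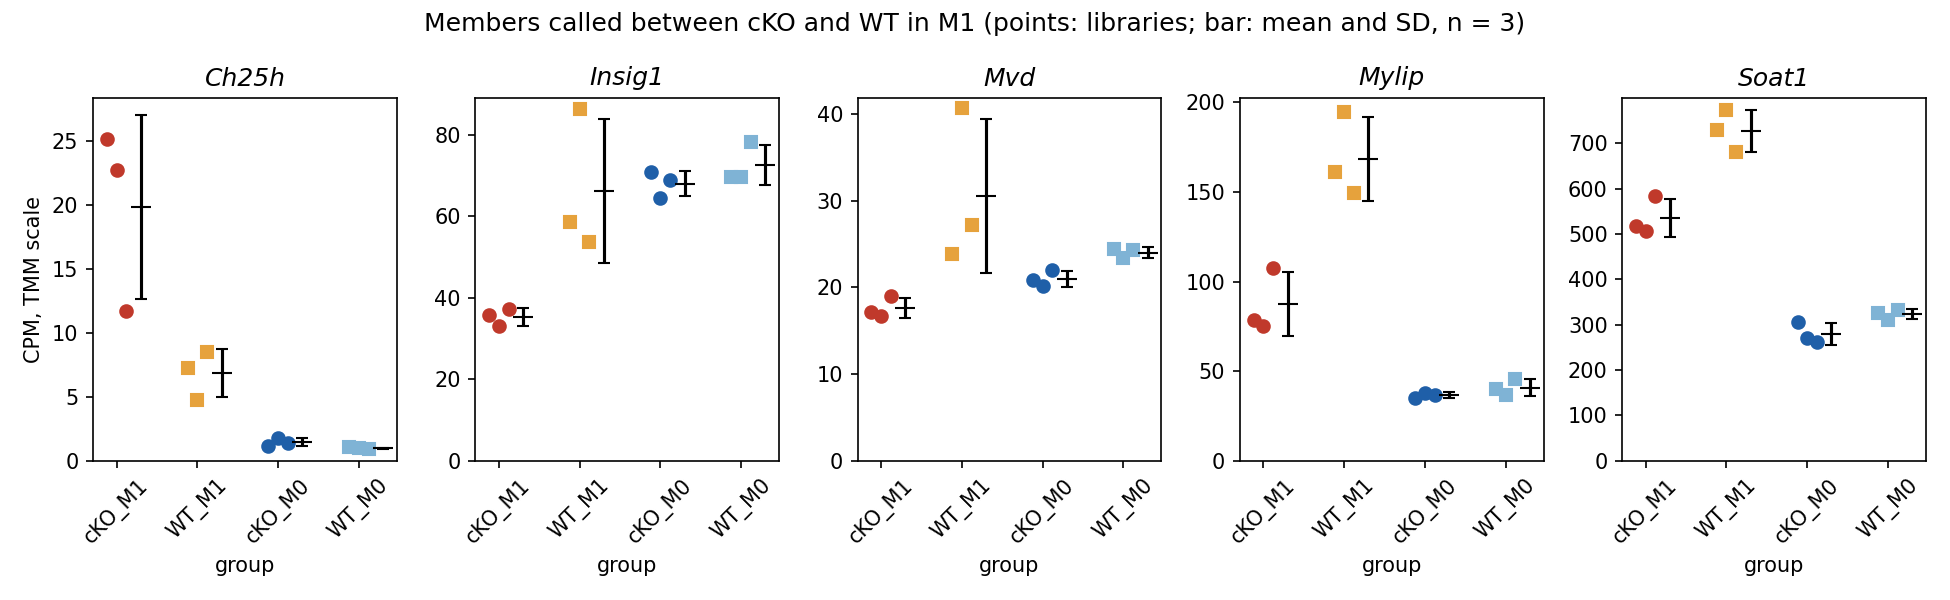
Levels of the 5 members that passed between cKO_M1 and WT_M1, in CPM on axes that start at 0; points are libraries in the order cKO_M1, WT_M1, cKO_M0 and WT_M0, and the bar beside each group is its mean and SD (n = 3). The Insig1 libraries of cKO_M1 lie between 33.0 and 37.3 CPM, under all other groups, and replicate 11 of WT_M1 is the highest M1 point for Insig1, Mvd, Mylip and Soat1.

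The members just short of the threshold were Hsd17b7 and Srebf1. Hsd17b7 was at 3.84 ± 1.04 CPM in cKO_M1 and 5.57 ± 1.26 CPM in WT_M1 with overlapping libraries (-0.54, SE 0.19, adjusted p = 0.0588). Srebf1 was at 80.5 ± 11.2 CPM in cKO_M1 and 66.1 ± 3.69 CPM in WT_M1 (0.28, SE 0.11, adjusted p = 0.0798). With 19 alternatives, Hsd17b7 passed as lower in 4, among them DESeq2 and the fit with no filter on low counts, and Srebf1 as higher in 2. Idi1, Cyp51, Fdps and Sqle, the enzymes with the deepest falls on stimulation, did not pass between genotypes. Idi1 had 0.12 (interval -0.31 to 0.56), Cyp51 0.01 (interval -0.26 to 0.28) and Sqle -0.13 (interval -0.38 to 0.11). Fdps had 0.10 with a wider interval (-0.60 to 0.79), and -0.36 without replicate 8 of cKO_M1. For Srebf2 the value was -0.00 (interval -0.20 to 0.19). The export pumps did not pass either, with 0.08 (interval -0.20 to 0.36) for Abca1 and -0.16 (interval -0.33 to 0.00) for Abcg1.

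Whether the genotype effect differed between M1 and M0 was tested as an interaction, the cKO effect in M1 minus that in M0. Of all genes tested, 8.16% passed, 4.02% higher and 4.14% lower. Among the members 0 were higher and 2 were lower, Insig1 at -0.81 (SE 0.19, adjusted p = 0.0178) and Mylip at -0.79 (SE 0.19, adjusted p = 0.0185), and 8 of the 29 had an unadjusted p under 0.05, against 23.9% of all genes tested. Both calls were kept without replicate 11 of WT_M1, with Insig1 at -0.58 (adjusted p = 0.0142) and Mylip at -0.68 (adjusted p = 0.0491). Both were lost without replicate 8 of cKO_M1, with Insig1 then at -0.77 (adjusted p = 0.0563) and Mylip at -0.70 (adjusted p = 0.0585). Ch25h had 0.96 (SE 0.41, adjusted p = 0.165), Mvd -0.60 (SE 0.21, adjusted p = 0.0871) and Soat1 -0.23 (SE 0.12, adjusted p = 0.254), none of which passed. Without replicate 11 of WT_M1 the Mvd value was -0.35 (adjusted p = 0.146). Hsd17b7 was the nearest to the threshold of the members that did not pass, at -0.75 (SE 0.25, adjusted p = 0.0782). Of 18 alternatives, Hsd17b7 passed in 4, Mvd in 3, and Ch25h and Abca1 in 2 each. For Ch25h these were the fit without replicate 9 of cKO_M1 and that with no filter on low counts. With library totals alone 60.5% of all interaction calls were higher, against 49.3% with TMM, and the count of members was again 0 higher and 2 lower. Of all 15110 genes tested, 796 were then higher and 519 lower.

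Genes that share the SREBP and sterol pathways but are not among the 29 were read from 4 lists, also chosen with earlier results known. Of 13 SREBP-linked fatty acid genes, 10 fell and 2 rose on stimulation in cKO, and 11 fell and 2 rose in WT. That is 92.3% of the 13 in cKO and 100% in WT, against 70.2% and 71.4% of all genes tested. Fads2, a fatty acid desaturase, had a log2 fold change of -6.64 (SE 0.16) in cKO and -5.81 (SE 0.16) in WT, and Elovl6, an elongase, -4.67 (SE 0.21) in cKO and -5.25 (SE 0.23) in WT. Acss2, which makes acetyl-CoA from acetate, and Me1, which makes NADPH, rose by 2.54 and 1.96 in cKO and by 2.94 and 2.36 in WT. Between genotypes in M1, 4 of these 13 (30.8%) were lower in cKO and 0 higher, against 9.67% lower and 8.98% higher of all genes tested, and 6 had an unadjusted p under 0.05, against 32.5% of all genes. These were Acss2 (-0.89, SE 0.12), the acyl-CoA synthetase gene Acsl3 (-0.67, SE 0.12), the elongase gene Elovl5 (-0.40, SE 0.09) and the desaturase gene Scd1 (-1.90, SE 0.47), the last at under 1 CPM in every M1 library. Acss2 averaged 20.5 ± 2.32 CPM in cKO_M1 and 38.1 ± 2.79 CPM in WT_M1. The interaction passed for Acsl3 (-0.65, SE 0.16) and Elovl5 (-0.51, SE 0.13), or 15.4% of the 13, against 8.16% of all genes tested.

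Of 10 genes of SREBP processing and sterol sensing in the endoplasmic reticulum, 5 rose and 4 fell on stimulation in cKO, and 3 rose and 4 fell in WT. That is 90% of the 10 in cKO and 70% in WT, against 70.2% and 71.4% of all genes tested. Mbtps1, the first protease that cuts SREBP, fell by 1.23 (SE 0.07) in cKO and by 1.44 (SE 0.07) in WT. In M1, 2 were higher and 2 lower in cKO than in WT, which is 40% of the 10, against 18.6% of all genes tested. Rnf145, a sterol-responsive ubiquitin ligase of the endoplasmic reticulum and known LXR target, averaged 78.5 ± 6.82 CPM in cKO_M1 and 31.7 ± 9.37 CPM in WT_M1 (1.31, SE 0.16, adjusted p = 9.41e-05). Its interaction passed (1.41, SE 0.22, adjusted p = 0.00218), and so did that of Ubxn4 (-0.57, SE 0.12). These 2 are 20% of the 10, against 8.16% of all genes tested. Ubxn4, of the degradation machinery of the endoplasmic reticulum, was lower (-0.55, SE 0.08), Mbtps2, the second protease, was lower (-0.35, SE 0.09), and Erlin2 was higher (0.28, SE 0.08).

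Of 17 tested genes of oxysterol metabolism and sterol transport, out of 19, 9 rose and 4 fell on stimulation in cKO, and 9 rose and 3 fell in WT. That is 76.5% of the 17 in cKO and 70.6% in WT, against 70.2% and 71.4% of all genes tested. Nr1h3, which encodes the receptor LXR alpha, rose by 3.26 (SE 0.10) in cKO and by 3.26 (SE 0.10) in WT. Cyp27a1, which makes another oxysterol, fell by 3.33 (SE 0.17) in cKO and by 4.47 (SE 0.18) in WT. Between genotypes in M1, 3 were higher and 5 lower, or 47.1% of the 17, against 18.6% of all genes tested. Nceh1, which frees cholesterol from stored esters, averaged 386 ± 40.8 CPM in cKO_M1 and 629.8 ± 39.4 CPM in WT_M1 (-0.71, SE 0.08, adjusted p = 9.57e-05). Lipa, the lysosomal acid lipase that does so for engulfed lipid, averaged 963 ± 88.3 CPM in cKO_M1 and 1427 ± 88.0 CPM in WT_M1 (-0.57, SE 0.08, adjusted p = 0.000241). Osbpl8 (-0.36, SE 0.07) was lower and Stard5 (0.39, SE 0.09) higher, both of lipid transfer families. The interaction passed for Nceh1 (-0.73), Lipa (-0.52), Cyp27a1 (1.14) and Stard5 (0.51), or 23.5% of the 17, against 8.16% of all genes tested.

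Of 9 genes of the other mevalonate branches, which lead to prenyl groups, ubiquinone and dolichol, 3 rose and 3 fell on stimulation in cKO, and 3 rose and 4 fell in WT. That is 66.7% of the 9 in cKO and 77.8% in WT, against 70.2% and 71.4% of all genes tested. In M1, Fnta (0.40, SE 0.10), a prenyltransferase subunit, and Pdss1 (0.71, SE 0.18), which builds the ubiquinone tail, were higher in cKO, and Rabggtb (-0.35, SE 0.11), of the transferase for Rab proteins, was lower. These are 33.3% of the 9, against 18.6% of all genes tested. In the 4 lists, 0 genes passed between cKO_M0 and WT_M0, against 1.61% of all genes tested, with 2 fatty acid genes, 2 processing genes, 1 branch gene and 4 transport genes at an unadjusted p under 0.05, against 18.6% of all genes tested.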

How the data were processed

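The deposited table held raw counts per gene for 12 libraries, with no normalization, and, per the file headers, a gene length (the Length column, in bases). The submitters' processing notes name featureCounts 2.0.3, HISAT2 2.2.1, Trimmomatic 0.39 and SAMtools 1.16.1, and the build GRCm39. Its annotation, strand option and handling of reads with several matches were not given in the sources used here. Every library was used, with its group from the sample labels.

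Counts were fitted with edgeR 4.0.16 in R 4.3.3 on 15110 genes kept by filterByExpr (minimum count 10, minimum total 15), with TMM factors and 1 mean per group over all 12 libraries. The quasi-likelihood F-test gave 5 comparisons, adjusted by Benjamini-Hochberg over all genes tested and called under 0.05. Standard errors were derived from fold change and F, and intervals are 95%. The common biological coefficient of variation was 0.111. CPM per kb divides by the Length column. Of the counts from 1 to 10, 60.9% were even, so counts were also halved. Other alternatives were DESeq2 1.42.0, limma-voom (limma 3.58.1), RLE factors, library totals alone, no filter, the compared groups alone and leaving out each library. The fit was also run on simulated counts, and the outcome is not given here.

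The 29 members and all lists were chosen with earlier results of these data known. The list does not hold every gene of the pathway. All members are named, and of each further list up to 4 called genes with the smallest p. Promoters came from a RefSeq table of GRCm38.p6 matched by symbol, and overlaps and near-identical copies from a GRCm38 annotation, so no coordinate of the counting build is printed.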

Additional observations from a re-analysis of the deposited data

Results flagged for a closer look

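The cKO effect differed between M1 and M0 for 2 of the 29 members (6.9%), by a test of the difference itself (edgeR interaction). Of all genes tested, 8.16% passed, so the share of the members is near that of all genes. For Insig1 the difference of log2 fold changes, M1 minus M0, was -0.81 (adjusted p = 0.0178): cKO against WT gave -0.91 in M1 and -0.09 in M0. For Mylip it was -0.79 (adjusted p = 0.0185), with -0.95 in M1 and -0.16 in M0. The 3 libraries of cKO_M1 lay below the 3 of WT_M1 for both genes, and also for 16.3% of all genes tested. Neither call held without replicate 8 of cKO_M1, where Insig1 was at -0.77 (adjusted p = 0.0563) and Mylip at -0.70 (adjusted p = 0.0585). Over the fits that left out 1 library each, the values ran from -0.95 to -0.58 for Insig1 and from -0.98 to -0.68 for Mylip.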

How the results depend on the processing

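Of 2726 member values recomputed under the alternatives, 2608 kept their direction and their side of the threshold, 78 (in 16 members, at most 0.36 in size) changed sign with neither value called, 13 were no longer past it, 25 newly passed and 2 called values changed sign. Both sign changes came with library totals alone, for M1 against M0 in WT, at -0.24 for Mvd and -0.10 for Abca1. With library totals alone, 2 members and 1982 of all 15110 genes tested were higher in cKO_M1 than in WT_M1. On that scale 4 members and 2769 of all genes tested were higher on stimulation in WT. Without the low-count filter, 1182 genes were called between cKO_M0 and WT_M0 with 1 member lower, and 1972 in the interaction with 2 members higher and 4 lower. DESeq2 called 871 genes and 1 member lower between cKO_M0 and WT_M0, and 1906 genes and 4 members lower in the interaction. Other counts between cKO_M0 and WT_M0 were 373 with counts halved, 491 with limma-voom and 394 with those groups alone, against 244. Leaving out 1 library at a time gave 1 (without cKO_M0 replicate 3) to 460 genes (without cKO_M1 replicate 7) between cKO_M0 and WT_M0. It gave 1674 (without WT_M1 replicate 11) to 3108 between cKO_M1 and WT_M1, with 1 to 2 members higher. In the interaction it gave 565 (without cKO_M1 replicate 8) to 1593 genes, with 0 to 1 members higher and 0 to 3 lower. Where a group was left with 2 libraries, these are assumed to vary like the others.

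The cause of these changes was not tested. The lowest count of a member in a library was 11 (Fdps). No paired analysis was possible because the groups share no replicate number. The adjusted p of the interaction ran from 3.54e-07 to 0.0563 for Insig1 and from 3.77e-07 to 0.0585 for Mylip over the alternatives.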
